A study of Mus musculus with 37 samples.

Results

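The 10 aldehyde dehydrogenase genes described here are Aldh1a1, Aldh1a7, Aldh1b1, Aldh1l1, Aldh2, Aldh3a2, Aldh4a1, Aldh6a1, Aldh8a1 and Aldh9a1. The genes were chosen with earlier results of these data in view, so counts of called members are descriptions, and all of their probes were then taken by the gene symbol in the probe name. They hold 16 of the 30146 probes, and 10 of the 21450 gene symbols, of a TempO-Seq table of mouse liver. In TempO-Seq, a pair of short probes is ligated on its target transcript and the ligated products are counted by sequencing, so each value is the number of reads on 1 probe. Scraped sections of formalin-fixed liver came from adult F0 mice of the outbred Crl:CD1(ICR) stock, each mouse giving 1 library. The mice received HFPO-DA, a processing aid for fluoropolymers, by oral gavage at 5, 0.5 or 0.1 mg/kg, and controls (0 mg/kg) received the deionized water vehicle alone.

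The table holds 19 males, 5 each at 0, 0.1 and 0.5 mg/kg and 4 at 5 mg/kg, and 18 females, 5 each at 0 and 0.1 mg/kg and 4 each at 0.5 and 5 mg/kg. Males were about 6 weeks old at the first dose and received 84 to 85 doses, beginning 70 days before mating. Females were about 11 weeks old at the first dose and received 53 to 65 doses, from 14 days before mating to day 20 or 21 of lactation. Sex therefore cannot be told apart from age, the number of doses and lactation. Total counts ranged from 2101495 to 10548222 in males and from 7952605 to 13878254 in females. The median total of males was 8012440 at 0, 8699740 at 0.1, 6943650 at 0.5 and 5117940 at 5 mg/kg, so depth and dose are partly tied in males. For females the median was 10232100 at 0 and 10380100 at 5 mg/kg. The liver was checked by its markers, and the 8 hepatocyte genes examined had counts in all 37 mice, with Alb between 4304 and 15742 CPM, the probe's count scaled to a common library total.

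Aldehyde dehydrogenases oxidize aldehydes to carboxylic acids with NAD or NADP as the cofactor. Each member of the family serves its own route: Aldh3a2 handles fatty aldehydes, Aldh2 and Aldh1b1 acetaldehyde, Aldh1a1 retinaldehyde, and the others intermediates of folate, amino acid and carnitine metabolism. The liver holds most of these routes. HFPO-DA is studied as an activator of PPARα, a nuclear receptor that turns on fatty acid oxidation in rodent liver, and Aldh3a2 is among the genes known to respond to that receptor.

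Of the 16 probes, 15 passed the filter on low counts and were tested. CPM use library totals normalized by the TMM method, and log2 fold changes are given with their standard error (SE). Tests are edgeR's quasi-likelihood F-tests, whose p-values were adjusted over all 18570 probes tested by the Benjamini-Hochberg method. Probes whose adjusted p fell below 0.10 are termed called, as are genes with at least 1 such probe. Probes differ in how well they capture their transcript, so CPM are compared between groups of mice and not between genes. The comparisons of each dose with 0 mg/kg share the control mice of that sex. In bulk liver, fewer cells of a type and less RNA per cell cannot be told apart.

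At 5 mg/kg, 7 of the 10 genes were called in males, where 15.8% of the 13004 genes tested were called. Aldh3a2, Aldh1a1 and Aldh9a1 rose (5.31% of all genes rose) and Aldh1l1, Aldh1b1, Aldh2 and Aldh6a1 fell (10.6% of all genes fell). In females at 5 mg/kg, 5 genes were called, against 5.24% of all genes. Aldh3a2, Aldh1a1 and Aldh9a1 rose in females too (2.62% of all genes rose), and Aldh1l1 and Aldh1b1 fell (2.63% of all genes fell). The female call of Aldh9a1 rested on probe 31595 alone. Its probe with more counts, 64839, had a log2 fold change of 0.20 (edgeR, adjusted p = 0.928). These shares belong to the main fit, in which both sexes share one estimate of the spread. That fit called 2359 of 18570 probes in males and 839 in females. With each sex fitted apart, 1120 of 16103 probes were called in males and 2093 of 17038 in females. That fit called 5 of the 10 genes in males and 5 in females. The groups at 0 and 5 mg/kg did not overlap for 8 of 15 probes in males (7.58% of all probes) and for 4 of 15 in females (8.71%). The median log2 fold change of the 15 probes was -0.51 in males, where that of all 18570 probes was -0.12, and the median of their absolute values was 0.66, beside 0.65 over all probes. In females the medians were -0.00 for the 15 probes and -0.01 for all probes, and those of the absolute values were 0.28 and 0.44. Genes with several probes, such as Aldh2 and Aldh6a1, enter these medians more than once. With each of the 10 genes read only by its probe with the most counts, the medians were -0.24 in males and -0.14 in females.

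**Figure D1:**
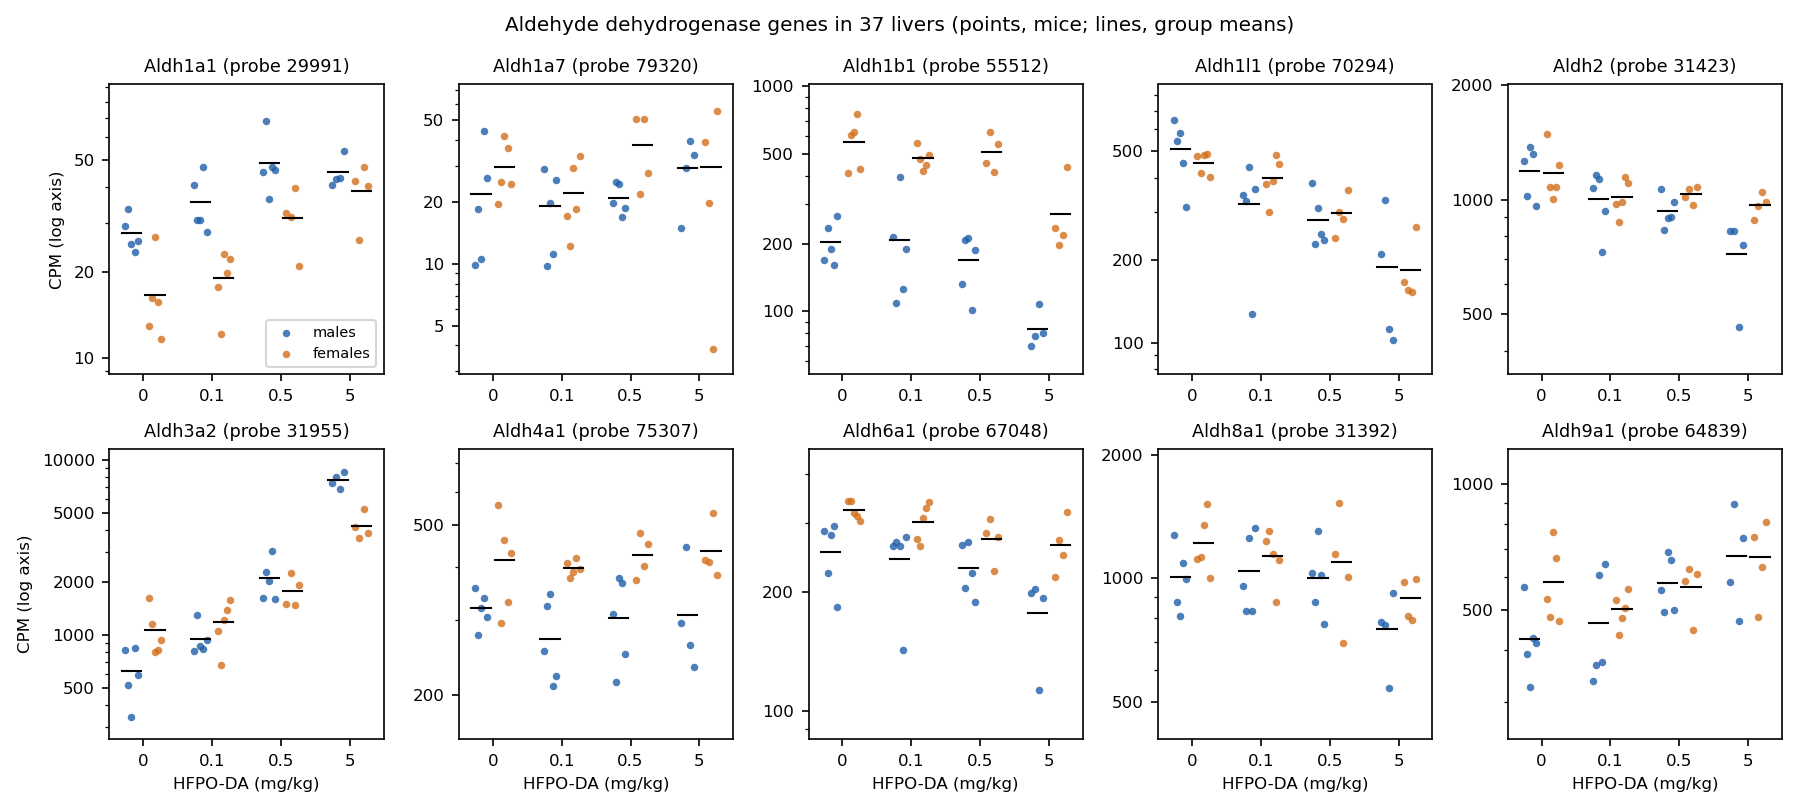
CPM on a log axis of the probe with the highest total count of each of the 10 genes, against dose in mg/kg. Points are mice, blue for males and orange for females, and lines are group means. Aldh3a2 climbs from 339 to 848 CPM in male controls to 6827 to 8555 CPM at 5 mg/kg, while Aldh1b1 is lower in males than in females at every dose by the group means.

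Aldh3a2 encodes fatty aldehyde dehydrogenase, a membrane enzyme of the endoplasmic reticulum and peroxisome that oxidizes long-chain aldehydes. In male controls, its probe 31955 stood at 821, 522, 339, 848 and 594 CPM. Males at 0.1 mg/kg had 814, 1312, 862, 835 and 933 CPM, those at 0.5 mg/kg had 1624, 2283, 2043, 3014 and 1601 CPM, and those at 5 mg/kg had 7386, 8065, 6827 and 8555 CPM. The males at 0.5 and 5 mg/kg were all above the controls and did not overlap with each other, whereas 3 of the 5 males at 0.1 mg/kg were above the highest control. The log2 fold change was 3.62 (SE 0.249), or 12.3-fold, at 5 mg/kg (edgeR, adjusted p = 3.25e-14) and 1.76 (SE 0.226) at 0.5 mg/kg (edgeR, adjusted p = 2.62e-06). At 0.1 mg/kg it was 0.61 (SE 0.220; edgeR, adjusted p = 0.624).

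In female controls, the same Aldh3a2 probe stood at 1634, 1154, 802, 825 and 938 CPM. Females at 0.1 mg/kg had 1057, 677, 1213, 1396 and 1579 CPM, those at 0.5 mg/kg had 1507, 2257, 1497 and 1937 CPM, and those at 5 mg/kg had 4165, 3578, 5294 and 3853 CPM. Only the group at 5 mg/kg lay wholly above the controls. The log2 fold change in females was 1.98 (SE 0.235), or 3.94-fold, at 5 mg/kg (edgeR, adjusted p = 8.94e-08) and 0.75 (SE 0.231) at 0.5 mg/kg (edgeR, adjusted p = 0.643).

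The rise of Aldh3a2 at 5 mg/kg was 1.65 larger in males than in females on the log2 scale (SE 0.331; edgeR interaction of sex and dose, adjusted p = 0.00873). It was the only one of the 10 genes whose response at 5 mg/kg differed between the sexes by this test, where 0.784% of all genes did. The male controls were below the female controls by 0.78 (log2 fold change -0.78, SE 0.221; edgeR, adjusted p = 0.0555), and the males at 5 mg/kg were above the females at 5 mg/kg by 0.87 (SE 0.247; edgeR, adjusted p = 0.0404). The difference between the control groups had adjusted p from 0.114 to 0.283 when male control replicate 2, 3 or 5 or female control replicate 1 or 2 was left out. At 0.5 mg/kg, edgeR called 0 of the 10 genes for a difference between the sexes in response (0.0154% of all genes), and Aldh3a2 (1.01, SE 0.321, adjusted p = 0.71) was the 1 gene with an unadjusted p under 0.05. Ordered by mean, the groups ran from male controls (625 CPM) through males at 0.1 mg/kg, female controls, and females at 0.1 and 0.5 mg/kg to males at 0.5 mg/kg (2113 CPM), with each overlapping the next. Females at 5 mg/kg (4223 CPM) and males at 5 mg/kg (7708 CPM) overlapped with neither neighbour.

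A second Aldh3a2 probe, 29772, did not pass the filter on low counts. It had no count in the 19 males, and in females 3 counts in 1 control, 10 in 1 mouse at 0.1 mg/kg, 5, 8, 15 and 8 in the mice at 0.5 mg/kg, and none at 5 mg/kg. These counts do not follow the levels of probe 31955.

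The stretch of 250 bases before the RefSeq start site of Aldh3a2 is shown because it heads the gene with the largest change among the 10. PPARα binds DNA with RXR at direct repeats of AGGTCA, 2 copies with any 1 base between them. Both strands of the windows from 250 bases before to 50 after each RefSeq start site (GRCm38.p6) were searched for this repeat, and 9 of the 10 genes have at least 1 such window. A match with at most 2 mismatches was present in 3.86% of all 32851 windows and one with at most 3 in 24.6%. Of the 9 genes, 2 (Aldh9a1 and Aldh6a1) had a closest match of 2 mismatches, 3 (Aldh3a2, Aldh1l1 and Aldh1a1) of 3 mismatches, and 4 of 4 mismatches. Capitals mark the closest match, each sequence runs 5′ to 3′ on the strand of its gene, and a match describes the letters only.
Aldh3a2, chr11:61267187-61267436, minus strand, match beginning 61 bases before the start site: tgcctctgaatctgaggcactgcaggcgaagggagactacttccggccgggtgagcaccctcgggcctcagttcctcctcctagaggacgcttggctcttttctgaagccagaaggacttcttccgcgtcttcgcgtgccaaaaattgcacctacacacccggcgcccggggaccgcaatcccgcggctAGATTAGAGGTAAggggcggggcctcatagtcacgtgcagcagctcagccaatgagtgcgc
Aldh9a1, chr1:167349837-167349869, plus strand, match beginning 144 bases before the start site: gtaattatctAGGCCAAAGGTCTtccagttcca
Aldh6a1, chr12:84451109-84451141, minus strand, match on the other strand, beginning 107 bases before the start site: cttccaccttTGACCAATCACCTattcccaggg

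Aldh1a1 encodes a cytosolic retinaldehyde dehydrogenase that forms retinoic acid. Male controls had 29.2, 33.6, 25.3, 23.5 and 25.9 CPM, males at 0.5 mg/kg 45.1, 68.3, 36.4, 47.3 and 45.9 CPM, and males at 5 mg/kg 40.8, 42.6, 43.1 and 53.8 CPM. Both dosed groups were above every male control and overlapped with each other. Aldh1a1 rose by 0.71 on the log2 scale (SE 0.244; edgeR, adjusted p = 0.0599) in males at 5 mg/kg, and at 0.5 mg/kg it had 0.82 (SE 0.232; edgeR, adjusted p = 0.128). The call at 5 mg/kg was lost without male replicate 4 at 5 mg/kg or without male control replicate 3, 4 or 5, with adjusted p from 0.102 to 0.166. At 0.5 mg/kg, a call appeared without male replicate 3 at that dose (adjusted p = 0.0951).

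In females, Aldh1a1 stood at 12.99, 16.3, 26.8, 15.7 and 11.7 CPM in controls, 32.4, 31.4, 39.7 and 21.1 CPM at 0.5 mg/kg, and 42.1, 26.1, 47.2 and 40.2 CPM at 5 mg/kg. One control (26.8 CPM) reached into both dosed groups. In log2 terms the difference was 1.22 (SE 0.243), or 2.33-fold, at 5 mg/kg (edgeR, adjusted p = 8.56e-04) and 0.90 (SE 0.243) at 0.5 mg/kg (edgeR, adjusted p = 0.311, and 0.0384 without that control). The response at 5 mg/kg differed by -0.51 between males and females (SE 0.345; edgeR interaction, adjusted p = 0.676).

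Aldh1a7 is a rodent relative of Aldh1a1, and both lie on chromosome 19 (GRCm38), Aldh1a1 at 20492715-20643465 on the plus strand and Aldh1a7 at 20692953-20727562 on the minus strand. Their coding sequences are identical at 91.6% of 1503 aligned bases, so reads could be shared between their probes, and the values of both genes are uncertain to that extent. Aldh1a7 varied widely between mice of a group, from 9.85 to 44.4 CPM in male controls and from 3.86 to 55.2 CPM in females at 5 mg/kg. The change at 5 mg/kg on the log2 scale was 0.42 (SE 0.448) in males and -0.00 (SE 0.443) in females (edgeR, adjusted p = 0.650 and 1), with a 95% interval from -0.48 to 1.33 in males.

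Aldh9a1 encodes the dehydrogenase of trimethylaminobutyraldehyde in carnitine synthesis. Its probe 31595 stood at 27.98, 28.3, 42.8, 26.4 and 32.8 CPM in male controls and at 56.8, 51.3, 50.6 and 53.6 CPM in males at 5 mg/kg. In females it went from 42.7, 19.9, 38.1, 27.7 and 25.5 CPM in controls to 70.4, 56.5, 57.8 and 63.7 CPM at 5 mg/kg. Neither sex had any overlap, and the log2 fold change was 0.75 (SE 0.245) in males and 1.01 (SE 0.243) in females (edgeR, adjusted p = 0.0488 and 0.00763). The male call was lost without male control replicate 1, 2 or 4 or male replicate 1 at 5 mg/kg, with adjusted p from 0.114 to 0.121.

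The other Aldh9a1 probe, 64839, had 565, 392, 327, 428 and 415 CPM in male controls and 581, 895, 470 and 740 CPM in males at 5 mg/kg. Its groups overlapped, and the log2 fold change was 0.66 (SE 0.199; edgeR, adjusted p = 0.0297). The call was lost without male replicate 2 at 5 mg/kg (adjusted p = 0.177) or male control replicate 3 (adjusted p = 0.101). In females, probe 64839 had 529, 481, 765, 666 and 471 CPM in controls and 747, 480, 631 and 810 CPM at 5 mg/kg (0.20 on the log2 scale, SE 0.199; edgeR, adjusted p = 0.928). The Aldh9a1 call in females thus rests on probe 31595 alone, and was lost when the counts of both probes were summed (log2 fold change 0.26; edgeR, adjusted p = 0.683).

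**Figure D2:**
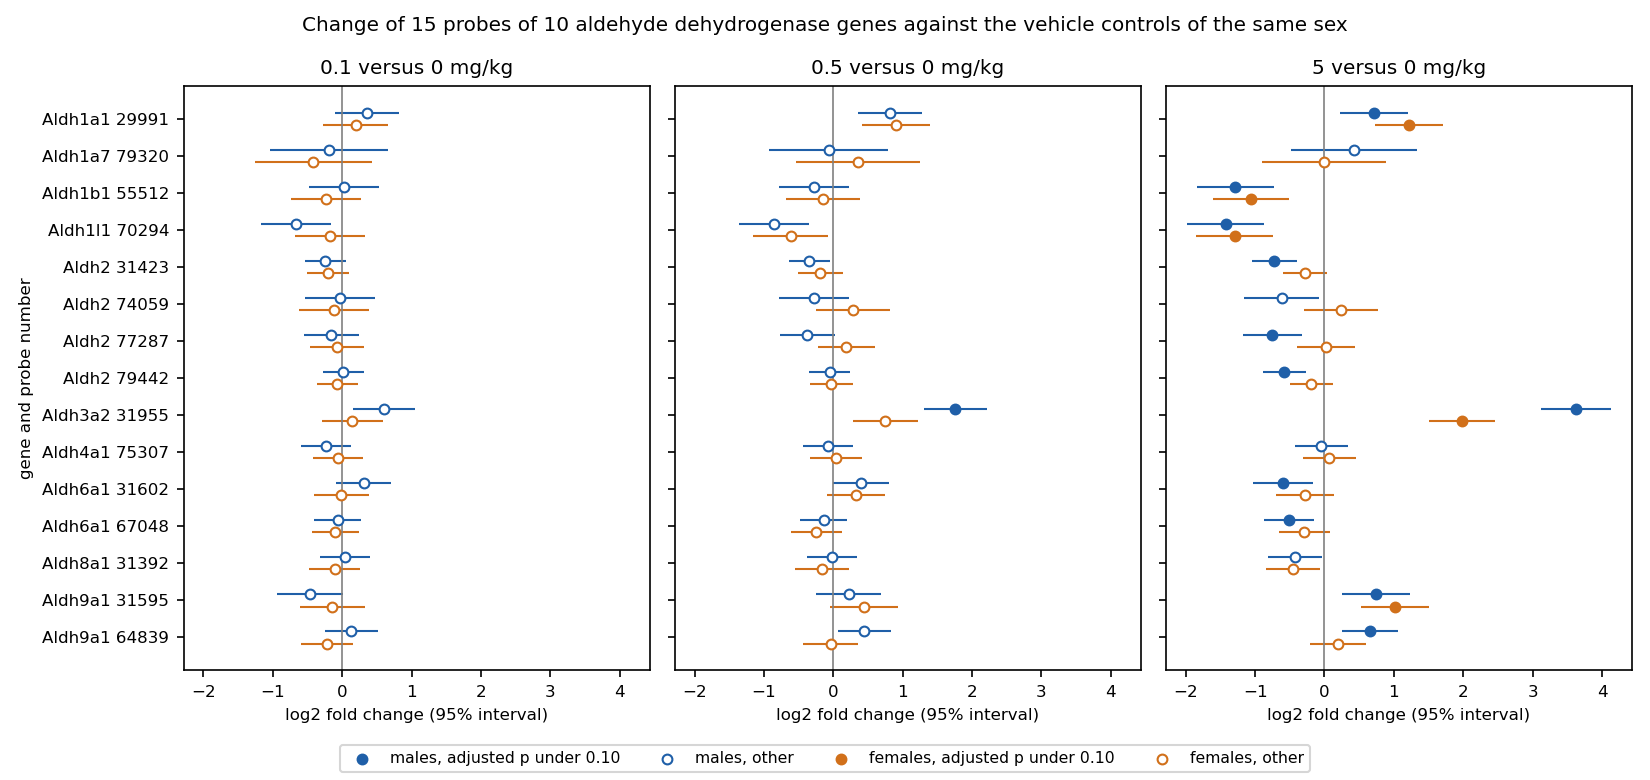
Log2 fold change against the controls of the same sex, with its 95% interval, for the 15 tested probes at each of the 3 doses, males in blue and females in orange. Filled points have an adjusted p under 0.10, and at 5 mg/kg these run from -1.42 for Aldh1l1 to 3.62 for Aldh3a2 in males.

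Aldh1l1 encodes 10-formyltetrahydrofolate dehydrogenase, a cytosolic enzyme of folate metabolism abundant in liver. Male controls had 647, 546, 581, 454 and 312 CPM, males at 0.5 mg/kg 381, 229, 310, 248.6 and 237 CPM, and males at 5 mg/kg 210, 332, 113 and 102 CPM. The lowest control (312 CPM) lay inside the range of both dosed groups. On the log2 scale Aldh1l1 changed by -1.42 (SE 0.275), or 0.373-fold, at 5 mg/kg (edgeR, adjusted p = 3.83e-04) and -0.85 (SE 0.252) at 0.5 mg/kg (edgeR, adjusted p = 0.151, and 0.0833 without the lowest control). In males at 0.1 mg/kg the values were 346, 329, 436, 128 and 365 CPM, and the log2 fold change was -0.66 (SE 0.251; edgeR, adjusted p = 0.624).

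In females, Aldh1l1 stood at 478, 417, 483, 488 and 401 CPM in controls, 241, 301, 283 and 360 CPM at 0.5 mg/kg, and 167, 156, 153 and 264 CPM at 5 mg/kg. Both dosed groups were below every control. Its change on the log2 scale was -1.29 (SE 0.274), or 0.408-fold, at 5 mg/kg (edgeR, adjusted p = 0.00186) and -0.61 (SE 0.268) at 0.5 mg/kg (edgeR, adjusted p = 1). The difference between the sexes in this response was -0.13 (SE 0.376; edgeR interaction, adjusted p = 0.993).

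Aldh1b1 and Aldh2 encode mitochondrial enzymes that oxidize acetaldehyde, and their coding sequences are identical at 69.0% of 1557 aligned bases. Aldh1b1 had 169, 235, 189, 161 and 265 CPM in male controls and 70.0, 78.0, 108 and 79.9 CPM in males at 5 mg/kg, with no overlap. The log2 fold change was -1.28 (SE 0.274; edgeR, adjusted p = 0.00132), and males at 5 mg/kg were also below those at 0.5 mg/kg (log2 fold change -1.01, SE 0.272; edgeR, adjusted p = 0.0221). Female controls had 411, 608, 626, 755 and 430 CPM and females at 5 mg/kg 235, 197, 218 and 438 CPM, so that 1 dosed female overlapped with the controls. Females showed a log2 fold change of -1.06 (SE 0.270; edgeR, adjusted p = 0.0144).

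Aldh1b1 also differed between the sexes without HFPO-DA: male controls were below all female controls, with a log2 fold change of -1.47 (SE 0.254; edgeR, adjusted p = 1.40e-04). Of the 10 genes, 2 (Aldh1b1 and Aldh3a2) were called between the control groups, where 3.17% of all genes were. The difference in Aldh1b1 between males and females was -1.60 (SE 0.266) at 0.5 mg/kg and -1.70 (SE 0.288) at 5 mg/kg (edgeR, adjusted p = 7.83e-05 and 2.09e-04), and it was the only one of the 10 genes called between the sexes at 0.5 mg/kg (4.09% of all genes). Cell type markers also differed between the control groups. The summed level of 5 red cell markers was 56.7 to 112 CPM in male and 0.885 to 10.9 CPM in female controls, with 1 of 3 tested called higher in males. Car3, the only gene of the adipocyte list that was tested, was also called higher in males. It had 172 to 2547 CPM over the 37 mice, where Adipoq stayed at or below 0.863 CPM, so no difference in adipocytes is read from it. Of 8 hepatocyte markers 1 was higher and 1 lower in male controls, and of 8 periportal markers 1 was higher and 2 lower. Their part in the differences of Aldh1b1 and Aldh3a2 was not tested. At 5 mg/kg, 3 of the 10 genes were called between the sexes (6.64% of all genes): Aldh3a2 higher in males, and Aldh1b1 and Aldh6a1 lower.

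Aldh2 was read by 4 probes. The probe with the most counts, 31423, stood at 1264, 1022, 1376, 1317 and 962 CPM in male controls and at 828, 829, 463 and 761 CPM in males at 5 mg/kg. The groups did not overlap, and the log2 fold change was -0.72 (SE 0.160; edgeR, adjusted p = 0.00205). Probes 77287 and 79442 gave -0.75 (SE 0.210) and -0.58 (SE 0.155; edgeR, adjusted p = 0.0172 and 0.0129), and probe 74059 gave -0.62 (SE 0.269; edgeR, adjusted p = 0.153). In females, the 4 probes gave between -0.28 and 0.23 (edgeR, adjusted p from 0.543 to 1), with 1489, 1079, 1004, 1078 and 1232 CPM for probe 31423 in controls and 883, 965, 1046 and 986 CPM at 5 mg/kg. The response of males minus that of females lay between -0.85 and -0.38 over the 4 probes, and none passed the interaction test (edgeR, adjusted p from 0.333 to 0.550).

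Aldh6a1 encodes methylmalonate-semialdehyde dehydrogenase, a mitochondrial enzyme of valine and thymine breakdown. Probe 67048 had 286, 224, 279, 296 and 184 CPM in male controls and 199, 205, 113 and 194 CPM in males at 5 mg/kg, with 3 of the dosed males above the lowest control. The log2 fold change was -0.51 (SE 0.181) for this probe and -0.59 (SE 0.214) for probe 31602 (edgeR, adjusted p = 0.0712 and 0.0780). Without male replicate 3 at 5 mg/kg, the library with the fewest counts, they were -0.35 and -0.50 (edgeR, adjusted p = 0.266 and 0.196). Without male control replicate 1 the adjusted p were 0.113 and 0.158, without male control replicate 4 that of probe 67048 was 0.118, and without male control replicate 5 that of probe 31602 was 0.123.

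Probe 31602 of Aldh6a1 stood at 55.5, 36.3, 40.3, 36.8 and 45.8 CPM in male controls, 56.4, 55.1, 60.1, 49.7 and 61.9 CPM at 0.5 mg/kg, and 30.7, 28.6, 22.5 and 31.7 CPM at 5 mg/kg. The males at 0.5 mg/kg overlapped with the controls (0.40 on the log2 scale, SE 0.198; edgeR, adjusted p = 0.490). Males at 5 mg/kg were below all those at 0.5 mg/kg by this probe (log2 fold change -0.99, SE 0.217; edgeR, adjusted p = 0.00344), while probe 67048 gave -0.37 (SE 0.181; edgeR, adjusted p = 0.223). In females, the log2 fold changes at 5 mg/kg were -0.29 (SE 0.180) for probe 67048 and -0.28 (SE 0.209) for probe 31602 (edgeR, adjusted p = 0.6253 and 0.779).

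Aldh4a1 oxidizes the semialdehyde formed from proline in mitochondria, and Aldh8a1 acts on aminomuconic semialdehyde of the kynurenine route. Neither was called at any dose. Aldh4a1 ranged from 276 to 357 CPM in male controls and from 232 to 444 CPM in males at 5 mg/kg, with log2 fold changes of -0.05 (SE 0.189) in males and 0.07 (SE 0.188) in females (edgeR, adjusted p = 0.931 and 1). The 95% interval ran from -0.43 to 0.33 in males and from -0.31 to 0.45 in females. Aldh8a1 ranged from 813 to 1277 CPM in male controls and from 543 to 922 CPM in males at 5 mg/kg. The estimates for Aldh8a1 were -0.42 (SE 0.192) on the log2 scale in males and -0.45 (SE 0.192) in females (edgeR, adjusted p = 0.172 and 0.278), and without male replicate 4 at 5 mg/kg the male value was -0.56 (edgeR, adjusted p = 0.0934).

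At 0.5 mg/kg, Aldh3a2 was the only gene of the 10 called by edgeR in males, against 0.815% of all genes. There, 5 genes had an unadjusted p under 0.05. The share of all genes under that cut-off was not counted for any comparison. DESeq2 called 3 of the 10 in males, Aldh1a1, Aldh1l1 and Aldh3a2. Over all probes, DESeq2 called 319 of the 17946 to which it gave an adjusted p there, where edgeR called 116 of 18570. The number of probes given an adjusted p by DESeq2 changes between comparisons, so its shares cannot be set against those of edgeR. These are counts of probes, while members are counted as genes. In females at 0.5 mg/kg, edgeR called 0 of the 10 (0.138% of all genes), while Aldh1a1, Aldh1l1 and Aldh3a2 had an unadjusted p under 0.05. DESeq2 called 2 of the 10 in females, Aldh1a1 and Aldh3a2. Over all probes it called 76 of the 4792 with an adjusted p there, where edgeR called 21 of 18570. At 0.1 mg/kg, edgeR and DESeq2 each called 0 of the 10 in both sexes (0% of all genes by edgeR). DESeq2 called 19 of 16855 probes in males and 3 of 28330 in females at that dose. In males at 0.1 mg/kg, 2 genes, Aldh1l1 and Aldh3a2, had an unadjusted p under 0.05, and in females 0 had. Between 0.5 and 5 mg/kg, 4 genes were called in males (11.2% of all genes): Aldh3a2 rose by a further 1.87 (SE 0.235; edgeR, adjusted p = 7.19e-07), and Aldh1b1, Aldh2 and Aldh6a1 fell. The call of Aldh2 there rested on probe 79442 (log2 fold change -0.52, SE 0.155; edgeR, adjusted p = 0.0381) and was lost without male replicate 3 at 5 mg/kg (adjusted p = 0.1497), while probe 31423 was called without male replicate 1 or 2 at 5 mg/kg (adjusted p = 0.0987 and 0.0932). Without that replicate 2, Aldh1l1 was also called (log2 fold change -1.02; edgeR, adjusted p = 0.0201). In females, edgeR called 1 gene between 0.5 and 5 mg/kg (1.68% of all genes), Aldh3a2 at 1.23 (SE 0.2485; adjusted p = 0.00299), while 3 genes were called by DESeq2 and 4 with each sex fitted apart. Over all probes, DESeq2 called 500 of the 6987 with an adjusted p and the fit of each sex apart 742 of 17038, where the main fit called 274 of 18570. Aldh1b1 was called as well without female replicate 4 at 5 mg/kg (log2 fold change -1.24; edgeR, adjusted p = 0.0180).

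Where a gene had several probes, their ratio in each mouse was compared between dosed and control mice by exact two-sided permutation tests, 20 in all, for which 4 mice against 5 or 5 against 5 allow a p no lower than 0.00794. None passed after adjustment (smallest adjusted p = 0.136). Over 20 tests, a single ratio at that lowest p could not by itself reach an adjusted p under 0.10. The lack of a pass therefore does not show that the probes of a gene moved alike. For Aldh9a1 in females at 5 mg/kg, the log2 ratio of probe 31595 to 64839 was 0.87 above that of the controls (exact permutation test, p = 0.0238, adjusted p = 0.136). For Aldh6a1 at 0.5 mg/kg, the log2 ratio of probe 31602 to 67048 was 0.55 above the controls in males and 0.61 above in females (exact permutation tests, p = 0.0476 and 0.0317, adjusted p = 0.136 for both). The Aldh2 pairs included a log2 ratio of probe 74059 to 31423 that was 0.58 above controls in females at 5 mg/kg (exact permutation test, p = 0.0476, adjusted p = 0.136). Also for Aldh2, probe 79442 was 0.29 above probe 31423 relative to controls in males at 0.5 mg/kg (exact permutation test, p = 0.00794, adjusted p = 0.136).

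**Figure D3:**
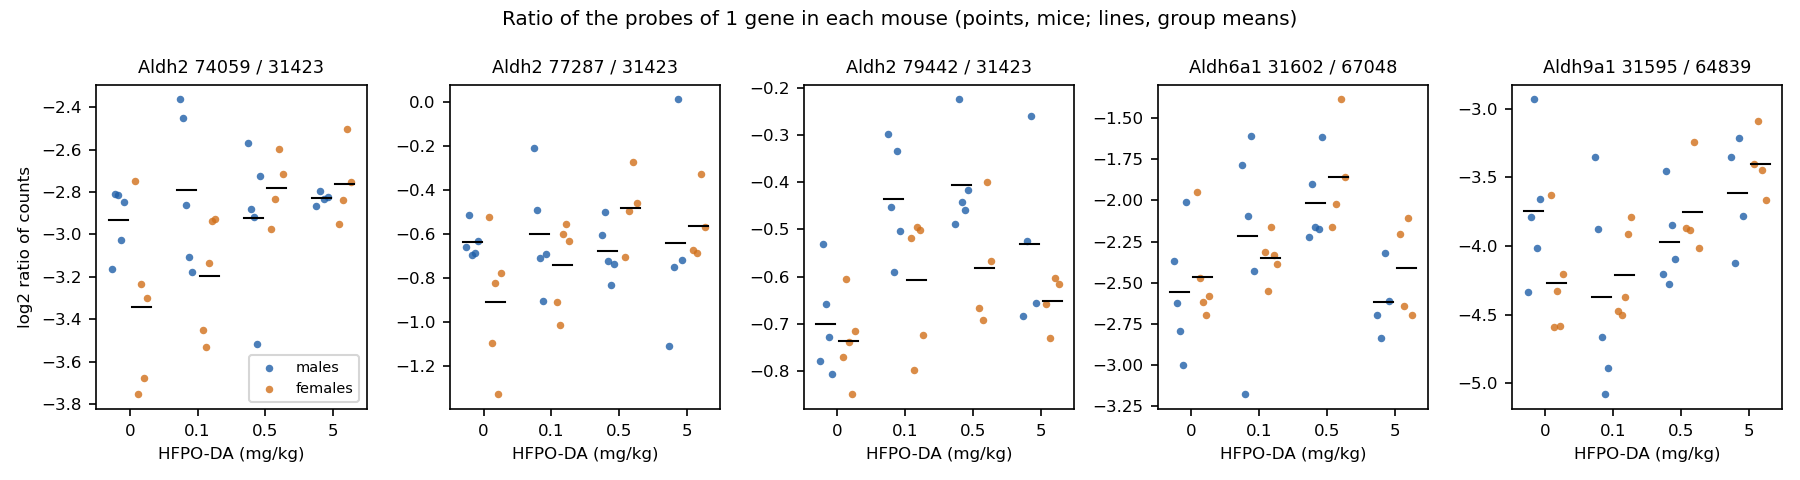
Log2 ratio of the counts of 2 probes of the same gene, by dose in mg/kg, for Aldh2, Aldh6a1 and Aldh9a1. Points are mice, blue for males and orange for females, and lines are group means, and the ratio of the Aldh9a1 probes in females moves up by 0.87 from 0 to 5 mg/kg.

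Some markers of hepatocytes fell at 5 mg/kg in both sexes. The summed level of 8 hepatocyte markers ranged from 32335 to 47197 CPM in male controls and from 19478 to 24233 CPM in males at 5 mg/kg, and 5 of the 8 fell and none rose by edgeR. In females the sums ranged from 26923 to 39931 CPM in controls and from 29053 to 32350 CPM at 5 mg/kg, with 3 of 8 fallen. Of 9 markers of hepatocytes around the central vein, 5 fell in males (summed level 5004 to 10261 CPM in controls and 1877 to 4406 CPM at 5 mg/kg) and 4 in females (5431 to 6791 and 2642 to 5617 CPM). Of 8 markers of those around the portal vein, 7 fell in males (12287 to 19210 and 6202 to 9998 CPM) and 2 in females (10705 to 16605 and 8280 to 14196 CPM). The part of these shifts in the values of Aldh1l1, Aldh1b1, Aldh2 and Aldh6a1 was not tested.

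The sums over 8 Kupffer cell markers were 84.2 to 356 CPM in male controls and 101 to 286 CPM in males at 5 mg/kg, and those over 8 stellate cell markers were 272 to 514 and 393 to 617 CPM. None of the tested Kupffer, stellate, bile duct, lymphocyte or red cell markers was called at 5 mg/kg in either sex, and 1 of 8 markers of sinusoidal endothelium fell in males. The bile duct marker Epcam had counts in 1 mouse, the lymphocyte marker Ms4a1 in 5 and the adipocyte marker Lep in 2. Of the adipocyte list, only Car3 passed the filter, and it fell in both sexes, while Adipoq stayed at or below 0.863 CPM.

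Genes around the 10 members were read by the probe with the most counts of each gene. The 11 other aldehyde dehydrogenase genes of the table include 6 that passed the filter, of which 1 rose and 1 fell in males at 5 mg/kg and none was called in females. Aldh5a1, which oxidizes succinate semialdehyde, rose by 0.70 in males (SE 0.237; edgeR, adjusted p = 0.0597), and Aldh16a1 fell by 0.97 (SE 0.264; edgeR, adjusted p = 0.0138). Aldh7a1, of lysine breakdown, stood 0.04 from controls on the log2 scale in males (SE 0.163) and 0.39 in females (SE 0.163; edgeR, adjusted p = 0.932 and 0.265).

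All 14 of the listed PPARα target genes rose in males at 5 mg/kg and 13 of 14 in females, with median log2 fold changes of 2.92 and 3.29. Ehhadh, the bifunctional enzyme of peroxisomal fatty acid oxidation, rose by 5.51 (SE 0.301) in males and 5.03 (SE 0.294) in females. Acaa1b, the peroxisomal thiolase, rose by 3.38 and 3.48 (edgeR, adjusted p at most 3.04e-11 for both genes in both sexes). At 0.5 mg/kg, 11 of the 14 rose in males and 8 in females.

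The list of genes that form or shorten fatty aldehydes and alcohols, the substrates of Aldh3a2, was mixed at 5 mg/kg. Of 10 tested, 2 rose and 3 fell in males, and 3 rose and 1 fell in females. Cyp4a10 and Cyp4a14, fatty acid hydroxylases that also stand in the PPARα list, rose by 6.47 (SE 0.608) and 5.95 (SE 0.682) in males and 4.38 (SE 0.552) and 5.91 (SE 0.679) in females. Cyp4a12a rose by 7.65 in females (SE 0.679; edgeR, adjusted p = 6.11e-11) and had 0.10 in males (SE 0.501; edgeR, adjusted p = 0.947). The female rise began near the floor, from 0.083 to 2.43 CPM in controls to 79.1 to 270 CPM at 5 mg/kg. Males already had 247 to 703 CPM in controls, and 418 to 529 CPM at 5 mg/kg.

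Among 13 tested genes of retinoid metabolism, the route of Aldh1a1, 2 rose and 3 fell in males and 3 rose and 2 fell in females. Retsat, retinol saturase, rose by 2.71 in males (SE 0.269) and 3.31 in females (SE 0.275), and Dhrs4, a reductase of retinal, rose by 0.93 (SE 0.186) and 1.09 (SE 0.186). Rdh7, a retinol dehydrogenase, fell by 0.64 (SE 0.149) in males and 0.52 (SE 0.149) in females (edgeR, adjusted p = 0.00368 and 0.0335). Of 13 tested alcohol and aldehyde oxidoreductases, 2 rose and 5 fell in males and 2 fell in females. Aox3, an aldehyde oxidase, fell by 2.45 (SE 0.262) in males and 1.67 (SE 0.254) in females. Cyp2e1, which oxidizes ethanol, fell by 1.26 in males (SE 0.245; edgeR, adjusted p = 4.21e-04) and had -0.68 in females (SE 0.241; edgeR, adjusted p = 0.140), and Cbr1, a carbonyl reductase, rose by 1.22 in males (SE 0.182; edgeR, adjusted p = 6.21e-06) and had 0.08 in females (SE 0.182; edgeR, adjusted p = 1).

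**Figure D4:**
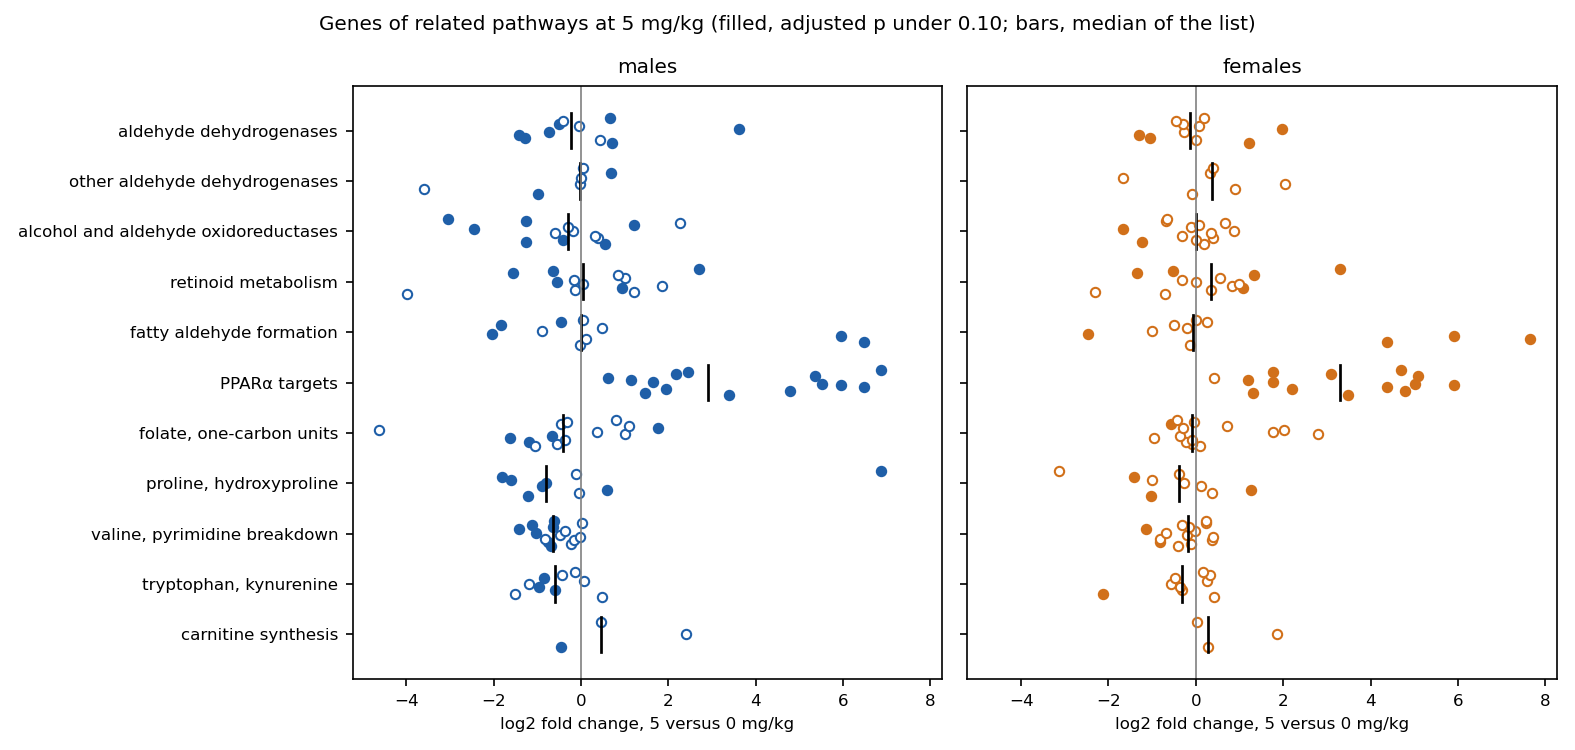
Log2 fold change at 5 mg/kg against controls of the same sex for the genes of the 10 members and 10 related lists, 1 point per gene, read by its probe with the most counts. Filled points have an adjusted p under 0.10 and bars are list medians, which are 2.92 in males and 3.29 in females for the PPARα targets.

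Of 14 genes of valine and pyrimidine breakdown, the route of Aldh6a1, 7 fell and 0 rose in males (median log2 fold change -0.63), and 2 fell in females. Dpyd, the first enzyme of pyrimidine breakdown, fell by 1.41 (SE 0.187) in males and 1.15 (SE 0.185) in females. Hibadh, of valine breakdown, fell by 1.11 (SE 0.223) and Dpys by 0.65 (SE 0.173) in males, and in females they had -0.31 (SE 0.217) and -0.16 (SE 0.171; edgeR, adjusted p = 0.743 and 0.955). Of 9 tested genes of proline and hydroxyproline, 5 fell and 2 rose in males and 2 fell and 1 rose in females. Prodh, which feeds the route of Aldh4a1, fell by 1.82 (SE 0.269) in males and 1.42 (SE 0.264) in females, and Grhpr, glyoxylate reductase, rose by 0.61 (SE 0.174) and 1.26 (SE 0.174). Hoga1, of hydroxyproline breakdown, fell by 0.80 in males (SE 0.1696) and had -0.28 in females (SE 0.167; edgeR, adjusted p = 0.585).

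Of 9 genes of the kynurenine route, to which Aldh8a1 belongs, 3 fell in males and 1 in females. Haao fell by 0.96 (SE 0.145), Kynu by 0.85 (SE 0.198) and Afmid by 0.60 (SE 0.221) in males, and in females they had -0.36, -0.48 and -0.31 (edgeR, adjusted p from 0.229 to 0.748). Of 14 folate genes, around Aldh1l1, 3 fell and 1 rose in males and 1 fell in females. Ftcd fell by 1.19 (SE 0.233) and Gldc by 1.63 (SE 0.338) in males. In females Ftcd had -0.24 (SE 0.224) and Gldc -0.96 (SE 0.322; edgeR, adjusted p = 0.905 and 0.101). Of the 3 genes of carnitine synthesis and uptake beside Aldh9a1, Bbox1 fell by 0.46 in males (SE 0.171; edgeR, adjusted p = 0.0838), and Slc22a5 and Tmlhe were not called in males, nor was any of the 3 in females. Slc22a5 and Tmlhe lay near the floor, where a change can be missed. From 0 to 5 mg/kg, mean Slc22a5 went from 0.788 to 4.18 CPM in males and from 1.40 to 5.10 CPM in females. Mean Tmlhe went from 4.32 to 5.91 CPM in males and from 4.70 to 4.76 CPM in females.

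The genes most like each member were found by Pearson's r of log2 CPM over 37 mice, each sex centred on its own mean. These are descriptions, since all genes share the same mice, doses and normalization. Aldh3a2 went most closely with Ehhadh (r = 0.944), Decr1 (r = 0.942) and Mgll (r = 0.938), and Aldh1a1 with Slc25a20 (r = 0.780), Dhrs4 (r = 0.748) and Retsat (r = 0.747). Aldh1l1 went most closely with Hpd (r = 0.903), Abca3 (r = 0.874) and Apoc3 (r = 0.871), and Aldh1b1 with C1s1 (r = 0.790), Gnmt (r = 0.785) and Serpina3m (r = 0.777). Genes close to Aldh9a1 included Phb2 (r = 0.820) and Acaa2 (r = 0.779). For Aldh2 they were Sdc4 (r = 0.840), Apoh (r = 0.830) and Hmox2 (r = 0.826), and for Aldh6a1 Hmox2 (r = 0.852), Gcdh (r = 0.836) and Dmgdh (r = 0.826). For Aldh8a1 they were Sdha (r = 0.849), Slmap (r = 0.774) and Pcx (r = 0.766), and the highest values were 0.647 for Aldh4a1, with Actr1b, and 0.582 for Aldh1a7, with Ncapg2. Among the members, the highest r was 0.825, between Aldh2 and Aldh6a1, and the lowest was -0.739, between Aldh1b1 and Aldh3a2.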

How the data were processed

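RNA of 40 livers, 5 per sex and dose, was assayed by TempO-Seq. Per the labels, reads were demultiplexed with bcl2fastq 2.17.1.14 and aligned with Bowtie, and the authors deposited raw counts per probe, without normalization, for the 37 mice left after 3 of low depth or few detected probes were removed. The genome build is not given in the sources used here. Counts were analysed in R 4.3.3 with edgeR 4.0.16: filterByExpr over the 8 groups (18570 probes of 13004 genes kept), TMM, and a quasi-likelihood fit with a mean per group to all 37 mice, adjusted p under 0.10. TMM left the median log2 fold change of all probes in males at 5 mg/kg at -0.12, and DESeq2 size factors left it at -0.03.

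The members, lists and tests were chosen with earlier results of these data known. All probes of the members are named, up to 3 genes per list by adjusted p at 5 mg/kg, and the 3 genes most like each member, except some genes that are not reported here. Gene positions are from GENCODE (GRCm38), coding sequences were aligned with MAFFT 7.526, and promoters are from RefSeq. Alternatives were DESeq2 1.42.0, its size factors, other filters, a robust fit, each sex fitted apart, summed probes, thinned counts, leaving out each mouse, and 0.05 as the threshold. The contrasts between the sexes at 0.5 and 5 mg/kg, the interaction at 0.5 mg/kg and the ratio tests were added after the data were seen.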

Additional observations from a re-analysis of the deposited data

Results flagged for a closer look

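The rise of Aldh3a2 at 5 mg/kg was flagged because it differed between the sexes by the interaction test, at 1.65 on the log2 scale (edgeR, adjusted p = 0.00873).

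Single mice far from the rest of their group were looked for in 120 sets of 4 or 5 CPM values, where chance marks about 1 in 20, and 5 were found. The female labelled replicate 4 at 5 mg/kg was far above the other 3 for both Aldh1b1 (438 CPM) and Aldh1l1 (264 CPM). Without it, the log2 fold changes in females were -1.38 for Aldh1b1 and -1.52 for Aldh1l1 (edgeR, adjusted p = 0.00147 and 8.56e-04). Male replicate 2 at 0.1 mg/kg was far above the rest for Aldh3a2 (1310 CPM). For probe 67048 of Aldh6a1, male replicate 4 at 0.1 mg/kg (143 CPM) and male replicate 3 at 5 mg/kg (113 CPM) were far below their groups.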

How the results depend on the processing

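No paired analysis was possible because the labels give each mouse an animal number of its own and no number that ties mice across groups. Of 1770 values of single probes under an alternative, 1709 kept their direction, where called, and their side of the threshold, 32 lost a call, 29 gained one and 0 reversed. Most of these values belong to probes not called in the main fit, which can lose no call. Leaving out each mouse entered only by its smallest and largest adjusted p. In males at 5 mg/kg, 8 of 12 alternatives lost the call of probe 31602 of Aldh6a1, and 0 of 12 that of Aldh3a2. With each sex fitted apart, all probes called at 5 against 0 mg/kg went from 2359 to 1120 in males and from 839 to 2093 in females. The number of members called stayed within 1.5 times at 5 against 0 mg/kg in both sexes, at 0.1 mg/kg, between 0.5 and 5 mg/kg in males and for the interaction. In males at 0.5 mg/kg it went from 1 to 2 with DESeq2 size factors, no filter, a mean of at least 10 counts or summed probes, and to 3 with DESeq2. Over all probes, calls there went from 116 to 141 with DESeq2 size factors, 151 with no filter, 131 with that mean and 319 with DESeq2. In females at 0.5 mg/kg the members called went from 0 to 2 with DESeq2, and all probes called from 21 to 76. Between 0.5 and 5 mg/kg in females the members called went from 1 to 2 with no filter, 4 with each sex fitted apart and 3 with DESeq2. All probes called there went from 274 to 302, 742 and 500 in that order. Between the control groups the members called went from 2 to 1 at a threshold of 0.05, and all probes called from 483 to 340. The causes were not tested. Leaving out each mouse gave 6 to 7 and 5 to 5 genes at 5 mg/kg in males and females, 1 to 2 and 0 to 1 at 0.5 mg/kg, 3 to 5 and 1 to 2 between 0.5 and 5 mg/kg, 1 to 3 between the controls, 1 for the interaction and 0 at 0.1 mg/kg. In males at 5 mg/kg, both probes of Aldh6a1 lost their call with DESeq2 size factors (adjusted p = 0.140 and 0.109), no filter (0.167 and 0.120) and each sex fitted apart (0.187 and 0.180), and without both male libraries of lowest total, an alternative chosen after seeing the data (0.151 and 0.208). The calls of Aldh1a1 and of probe 31595 of Aldh9a1 in males were lost with no filter (0.141 and 0.103), each sex fitted apart (0.113 and 0.143) and thinned counts (0.108 and 0.145). With at most 5 mice per group and 2101495 to 13878254 counts each, smaller changes may have been missed.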
